A study of Mus musculus with 14 samples.

Results

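SMAD4 CUT&Tag peaks of BMP6-stimulated mouse muscle stem cells (MuSCs) were examined where they lay on an autosome and touched no H3K27ac peak of the same cells. These sites were chosen by position, from the consensus lists of SMAD4 and of H3K27ac after BMP6, and a site counted when it shared not even 1 bp with an H3K27ac peak. They numbered 384 of the 12383 SMAD4 peaks on chromosomes 1 to 19. The list held 12860 SMAD4 peaks on all chromosomes, and 169 of the 477 on X also lay outside H3K27ac but were not included. The other 11999 autosomal SMAD4 peaks, which overlapped H3K27ac, served as the comparison.

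CUT&Tag cuts and tags chromatin with Tn5 transposase where an antibody is bound. The series held 14 libraries of cultured MuSCs from 9-week-old female C57BL/6N(Tg(Pax7-EGFP)Tajb) mice, sorted for the PAX7-GFP reporter, so that the purity of the cells rests on that transgene. In both conditions the cells were first kept without serum for 6 h with 200 ng/mL of a soluble BMPR1A receptor, which captures BMPs of the medium, and 100000 cells were fixed with 0.1% formaldehyde during 2 min. Stimulation lasted 1 h, with BMP6 at 100 ng/mL or with the vehicle (HCl at 4 mM, BSA at 0.1%). SMAD4, pSMAD1/5/9 and H3K27ac each had 2 biological replicates per condition, combined by the authors into 1 consensus list per antibody and condition, and the 2 libraries without antibody were not analysed here. After BMP6, an H3K27ac peak lay within 2 kb of the TSS of 8 of 8 muscle stem cell markers (Pax7, Myod1, Myf5, Vcam1, Itga7, Cdh15, Des and Sdc4) and of 1 of 8 markers of other cells (Cd68, but not Ptprc, Cdh5, Pecam1, Pdgfra, Myh11, Epcam or Sox10).

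SMAD4 is the common partner of the receptor-activated SMADs. BMP receptors phosphorylate SMAD1, SMAD5 and SMAD9, TGF-β and activin receptors phosphorylate SMAD2 and SMAD3, and both groups enter the nucleus with SMAD4. SMAD3 and SMAD4 contact a short DNA word, the SMAD box, which reads AGAC, or GTCT on the complementary strand. GC-rich words such as GGCGCC are also bound, among others by SMAD1 and SMAD5. H3K27ac is an acetylated histone found at active promoters and enhancers, so a SMAD4 peak outside it lies in chromatin without that mark in the peak list.

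The sequences at the summits of the strongest sites were mostly arrays of the SMAD box. The windows below are 120 bp of the GRCm39 plus strand centred on the summit, named by the nearest protein-coding gene, with each AGAC or GTCT in capitals. The first set holds the 6 strongest sites with at least 10 boxes in 200 bp, and an array beside Id4, a further gene of the BMP list.
Gm26897, chr5:111723965-111724084: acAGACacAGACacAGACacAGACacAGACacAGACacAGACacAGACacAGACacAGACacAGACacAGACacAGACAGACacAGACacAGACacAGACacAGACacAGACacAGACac
Insig1, chr5:28303799-28303918: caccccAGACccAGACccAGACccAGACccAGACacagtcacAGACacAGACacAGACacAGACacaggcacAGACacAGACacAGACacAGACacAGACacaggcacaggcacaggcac
Guca2b, chr4:119698471-119698590: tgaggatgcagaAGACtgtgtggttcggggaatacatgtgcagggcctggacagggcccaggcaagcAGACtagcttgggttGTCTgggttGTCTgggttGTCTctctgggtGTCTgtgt
Ntng2, chr2:29106015-29106134: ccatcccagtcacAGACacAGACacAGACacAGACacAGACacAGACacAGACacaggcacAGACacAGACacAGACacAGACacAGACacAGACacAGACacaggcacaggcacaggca
Bmp6, chr13:38522213-38522332: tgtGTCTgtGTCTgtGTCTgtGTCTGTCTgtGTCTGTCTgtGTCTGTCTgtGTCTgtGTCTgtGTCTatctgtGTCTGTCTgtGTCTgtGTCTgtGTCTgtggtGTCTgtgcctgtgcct
Myrfl, chr10:116589403-116589522: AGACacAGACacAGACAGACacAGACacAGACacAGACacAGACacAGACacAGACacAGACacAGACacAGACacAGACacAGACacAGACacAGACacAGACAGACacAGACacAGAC
Id4, chr13:48429198-48429317: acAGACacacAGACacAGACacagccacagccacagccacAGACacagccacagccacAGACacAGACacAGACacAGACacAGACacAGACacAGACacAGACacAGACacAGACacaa

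In 6 of these 7 windows the most common distance between neighbouring boxes was 6 bases, and the boxes lay on the same strand. The window beside Guca2b was different, with boxes on both strands and a most common distance of 9 bases. A second set shows the strongest tandem repeats that held few SMAD boxes, where a unit of 10 bases was repeated.
BB014433, chr8:15098944-15099063: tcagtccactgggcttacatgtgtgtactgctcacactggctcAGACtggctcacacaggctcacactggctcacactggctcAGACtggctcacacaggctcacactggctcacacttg
Magi3, chr3:104233365-104233484: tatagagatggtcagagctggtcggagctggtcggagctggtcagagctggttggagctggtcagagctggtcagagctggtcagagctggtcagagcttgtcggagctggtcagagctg
Foxo6, chr4:120084024-120084143: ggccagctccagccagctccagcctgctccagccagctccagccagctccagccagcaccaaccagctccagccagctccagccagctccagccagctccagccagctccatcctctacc

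The last set shows sites without a tandem repeat. Kazn and Gse1 overlapped a pSMAD1/5/9 peak, and the windows at Dlc1 and Iqsec3 are centred on the palindrome of 2 SMAD boxes, which is in capitals there.
Kazn, chr4:142409434-142409553: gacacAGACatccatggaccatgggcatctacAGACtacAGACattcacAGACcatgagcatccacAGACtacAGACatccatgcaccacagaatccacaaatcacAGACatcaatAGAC
Gse1, chr8:121261956-121262075: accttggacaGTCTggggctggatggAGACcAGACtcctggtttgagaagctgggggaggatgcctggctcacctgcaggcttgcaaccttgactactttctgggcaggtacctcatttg
Dlc1, chr8:37191033-37191152: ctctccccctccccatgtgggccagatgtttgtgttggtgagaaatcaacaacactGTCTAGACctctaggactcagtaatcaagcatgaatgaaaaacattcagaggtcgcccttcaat
Iqsec3, chr6:121450335-121450454: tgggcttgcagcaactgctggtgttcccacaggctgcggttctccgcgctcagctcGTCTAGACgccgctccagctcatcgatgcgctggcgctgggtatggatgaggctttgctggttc

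Most of the 384 sites were weak. The signal of a consensus peak is a score of the authors' peak caller, the sum of both replicate values, and it was ranked here among the 12383 autosomal peaks from 0% (strongest) to 100% (weakest). The median site stood at 87.0%, against 48.8% for the peaks inside H3K27ac, and the strongest, beside Gm26897, stood at 5.14%. When all peaks were divided into 10 equal deciles of signal, the strongest decile contained 2 of the 384 sites and the weakest contained 170. The sites were also narrower, with a median width of 330 bp against 523 bp. Their −log10 IDR, where a higher value means better agreement between replicates, had a median of 1.47 against 2.02, and 48 of 384 sites (12.5%) passed an IDR of 0.01 against 51.1% of the other peaks. These values come from the list that the sites were taken from and were not tested.

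The replicate columns differed in scale. The first replicate column was higher at 362 of 384 sites (94.3%), and at 91.8% of the other peaks. The larger replicate value was 1.53 times the smaller at the median site, between 1.28 and 1.97 times at the quartiles and 4.91 times at most. The replicate columns carry no replicate number, and with 1 consensus list per condition no error between replicates can be given for a count of peaks.

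**Figure D1:**
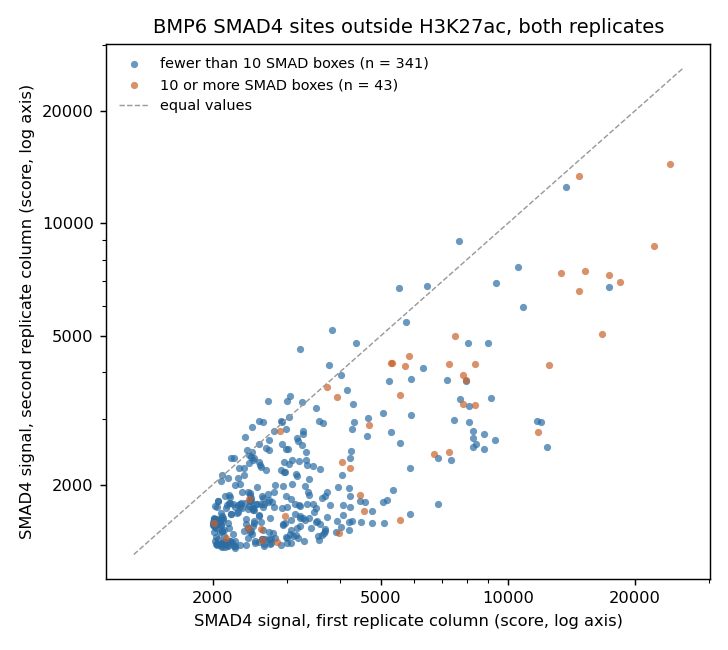
SMAD4 signal of the 384 sites in both replicate columns of the BMP6 list (scores, log axes), with the 43 sites that held 10 or more SMAD boxes in orange, the 341 others in blue and equality as a dashed line. Most sites lie in the lower left corner and below the line, and most of the highest points are orange.

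Of the 12 strongest sites, 9 were arrays of the SMAD box. The strongest, chr5:111723349-111724527, lay 158 kb upstream of the TSS of the predicted gene Gm26897, with signals of 24203 and 14401 and 33 SMAD boxes in 200 bp. The next, chr5:28303280-28304265, lay 27.5 kb downstream of the TSS of Insig1, which encodes a sterol-regulated anchor of the endoplasmic reticulum, with 22142 and 8706 and 25 boxes. The site nearest to Guca2b, the gene of uroguanylin, was far from it at 182 kb and reached 14725 and 13408 with 12 boxes. These 3 sites were high in both replicates, and the nearest BMP6 H3K27ac peak was 14.9 kb away or farther.

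The fourth site, chr8:15098551-15099511, reached 13708 and 12510 and lay 2.94 kb upstream of BB014433. It was also 8.27 kb upstream of Myom2, which encodes an M-band protein of the sarcomere, and the nearest BMP6 H3K27ac peak was only 110 bp away. The site overlapped an H3K27ac peak of vehicle cells. An intron of Ntng2, the gene of the membrane-anchored netrin G2, held a site with 18431 and 6965 and 20 boxes. A site 6.81 kb upstream of Bmp6, the gene of the ligand used for stimulation, reached 17395 and 7257 with 24 boxes on chr13:38522089-38523080. The nearest H3K27ac peak to it was 59.1 kb away after BMP6 and 10420 bp away in vehicle cells.

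Further sites of this rank lay far from Magi3, a scaffold protein of cell junctions, at 106 kb (17357 and 6750, 1 box), and from Myrfl at 143 kb (15275 and 7472, 29 boxes). One lay 2.37 kb upstream of Fam243 and counted as a TSS site through its width (16705 and 5043, 28 boxes). Sites were also nearest to Tmem200c (14767 and 6582, 35 boxes), Tpsab1, which encodes a mast cell tryptase (13356 and 7363, 10 boxes), and Foxo6, a forkhead transcription factor (10554 and 7651, 1 box). The 3 that were no arrays, beside BB014433, Magi3 and Foxo6, are those printed above with a repeated unit of 10 bases.

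The sites ranked 13 to 20 were less uniform. Dlc1 held one in an intron with 10886 and 5980 and a single SMAD palindrome. Plpp1, a lipid phosphate phosphatase, held one in an intron with 12546 and 4172 and 14 boxes. A site 79.0 kb upstream of Smad3, the gene of the TGF-β effector, was one of the few with a higher second column (7660 and 8986) and held 1 box. The other 5 were nearest to Cryba4, Dnai7, Engase, Ror2 and Fras1, with first replicate values between 9380 and 12394 and second values between 2523 and 6918. Among the 20 strongest sites, 11 had 10 or more boxes, 13 were tandem repeats and 13 overlapped a SMAD4 peak of vehicle cells.

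Boxes were then counted at all sites in 200 bp centred on the summit, on both strands and without overlaps. The threshold of 10 boxes was set after the sequences of the strongest sites had been seen, so the following shares describe the list and were not tested. Of the 384 sites, 43 (11.2%, 95% Wilson interval 8.42% to 14.7%) had 10 or more boxes, beside 0.953% of all autosomal SMAD4 peaks. Inside H3K27ac the share was 0.625% (75 of 11999). At 20 or more boxes the shares were 6.25% and 0.208%. The difference was in the dense windows, since 1 box or more was present at 84.9% of the sites and at 83.1% of the other peaks. Among peaks with an IDR of at most 0.01, 22 of 48 sites (45.8%) and 1.04% of 6129 other peaks had an array.

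The arrays were ordered. The most common distance between neighbouring boxes was 6 bases in 29 of the 43 arrays, and in 34 of them every box lay on the same strand. The word CG was rare, with a median of 0 in 200 bp at arrays and of 2 at the other 341 sites. The GGCGCC or GGAGCC words that SMAD1 and SMAD5 bind were present in 2 of 43 arrays and in 48 of 341 other sites. Of the arrays, 30 were intergenic, 11 intronic and 2 at a TSS. A tandem repeat of any kind, with 80 of 100 bases equal to the base 1 period earlier and periods of up to 40 bases, was found at 55 sites (14.3%), beside 1.32% of all autosomal SMAD4 peaks. It included 33 of the 43 arrays. Of the 75 arrays inside H3K27ac, 34 had a most common distance of 6 bases, 41 were tandem repeats and 3 held GGCGCC or GGAGCC. Their median count of CG was 1, so these traits were not particular to the sites.

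Arrays were also the stronger part of the list. The 43 sites with an array had a median rank of 50.7% and signals between 3591 and 38604, whereas the 341 others had a median rank of 88.9% and signals between 3421 and 26218. In the strongest 2 deciles of all peaks, 9 of 11 sites had an array, and in the weakest 2 deciles 9 of 251 had one. The groups overlapped widely, and 7 arrays fell in the weakest decile. Inside H3K27ac arrays ranked higher too, with a median of 16.2% against 49.1% for the peaks there without an array.

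**Figure D2:**
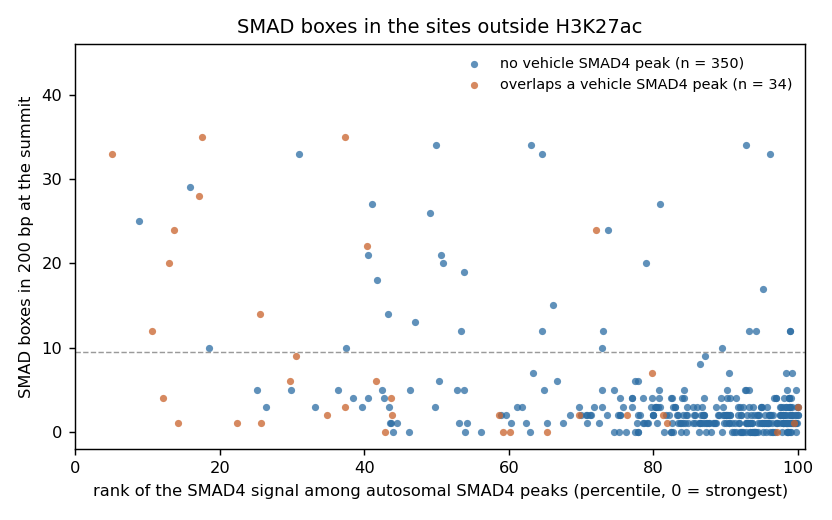
Number of SMAD boxes in 200 bp at the summit of each of the 384 sites against the rank of its SMAD4 signal (percentile among autosomal SMAD4 peaks, 0 = strongest), with sites that overlap a vehicle SMAD4 peak in orange and the others in blue. The dashed line separates the 43 sites with 10 or more boxes, which spread over all ranks, from the bulk at the lower right with 0 to 9 boxes.

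The vehicle libraries had not been used to choose the sites. Vehicle SMAD4 peaks that overlapped none of the 384 sites were divided by the vehicle H3K27ac list. Outside H3K27ac, 16 of 229 (6.99%) had 10 or more boxes, and inside it 26 of 8051 (0.323%) had so many. The odds ratio was 23.2 (95% interval 12.3 to 43.9). This comparison had been seen with 8 boxes before the threshold of 10 was set, so it is given as a description without a test. In the pSMAD1/5/9 list of BMP6-stimulated cells, 0 of 36 autosomal peaks outside H3K27ac had an array (95% Wilson interval up to 9.64%), and 6 of 6935 inside it did.

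All autosomes were finally divided into tiles of 200 bp, to see how many arrays had a SMAD4 peak at all. Outside BMP6 H3K27ac, 1060 of 11164952 tiles with 0 to 9 boxes (0.00949%) lay in a SMAD4 peak of BMP6-stimulated cells. The share was 0.313% at 10 to 14 boxes, 0.684% at 15 to 19 and 4.70% at 20 to 29. At 30 to 50 boxes it was 27.9% (17 of 61, 95% interval 18.2% to 40.2%). Inside H3K27ac the corresponding shares were 5.79%, 7.94%, 17.5%, 51.2% and 77.8%. The share thus rose with each step in boxes on both sides, and most tiles with arrays outside H3K27ac lay in no listed peak. The lists rest on reads of high mapping quality and 33 of the 43 arrays were tandem repeats, and the part of read placement in these shares was not tested. Neighbouring tiles can belong to the same array, so the tiles are not independent and no test was made. Of the 853 tiles with 20 or more boxes, 2 lay in a pSMAD1/5/9 peak of BMP6-stimulated cells and 113 in a SMAD4 peak. Of the 11970827 tiles with 0 to 9 boxes, 29335 lay in a pSMAD1/5/9 peak and 47742 in a SMAD4 peak. The share in SMAD4 was higher at 20 or more boxes, also on each side of H3K27ac. That in pSMAD1/5/9 rests on 2 tiles there and was not divided by H3K27ac. H3K27ac held 84 of 765 tiles with 20 to 29 boxes and 27 of 88 with 30 to 50. Of the tiles with 0 to 9 boxes it held 805875 of 11970827. Only 36 of 6971 autosomal pSMAD1/5/9 peaks lay outside H3K27ac, so these counts cannot compare pSMAD1/5/9 at equal H3K27ac.

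**Figure D3:**
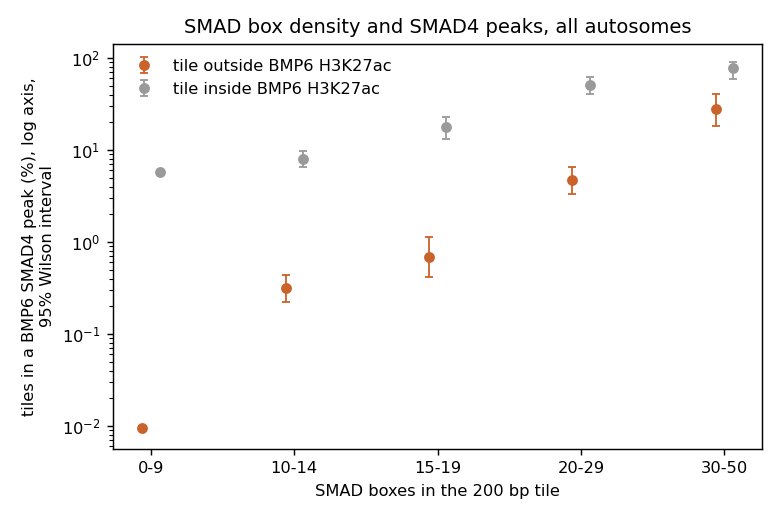
Share of 200 bp tiles of all autosomes that lie in a BMP6 SMAD4 peak (%, log axis, bars are 95% Wilson intervals) by the number of SMAD boxes in the tile, outside (orange) and inside (grey) BMP6 H3K27ac peaks. Both series rise from left to right, from 0.00949% to 27.9% outside and from 5.79% to 77.8% inside.

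Phosphorylated SMAD1/5/9 was listed at very few of the sites. Only 7 of 384 sites (1.82%, 95% Wilson interval 0.886% to 3.71%) overlapped a pSMAD1/5/9 peak of BMP6-stimulated cells, beside 43.3% of all autosomal SMAD4 peaks and 44.7% of those inside H3K27ac. The odds ratio was 0.0230 (95% interval 0.0109 to 0.0486), and the difference passed a two-sided Fisher's exact test with Benjamini-Hochberg adjustment over 4 overlaps (adjusted p = 2.29e-83). Peaks are not replicates, so this p, like all those that follow, describes the lists and not the variation between cultures. Only 36 of the 6971 autosomal pSMAD1/5/9 peaks of these cells lay outside H3K27ac. Few could thus meet a site chosen outside it, and neither the test nor strata of signal can separate the low share from that choice. Weak peaks overlapped less often in general. Within deciles of signal, however, the Mantel-Haenszel odds ratio was still 0.0543 (95% interval 0.0251 to 0.117). In the strongest of 5 equal quintiles of signal, 0 of 11 sites and 85.8% of 2466 other peaks overlapped pSMAD1/5/9. No site overlapped a pSMAD1/5/9 peak of vehicle cells (0 of 384, 95% Wilson interval up to 0.990%), beside 7.03% of all autosomal SMAD4 peaks (Fisher's exact test, adjusted p = 7.01e-13). In that vehicle list 2 of 924 autosomal peaks lay outside H3K27ac, so the same limit holds.

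The 7 sites with pSMAD1/5/9 were of middle or low strength. They were nearest to Kazn (7500 and 5003), Gse1 (5526 and 6733), Zfp661 (7974 and 3782), Trak1 (8766 and 2734), Wdr18 (8263 and 2786), Crispld2 (3516 and 3201) and Cbfa2t3 (2107 and 1363), with SMAD4 signals of both replicate columns in parentheses. Trak1 encodes an adaptor of mitochondrial transport, Wdr18 a factor of ribosomal RNA processing, and Cbfa2t3 a transcriptional corepressor. Their pSMAD1/5/9 partners were weak too, ranked between 60.5% and 91.6% in that list with a median of 80.1%, against 38.1% for the partners of peaks inside H3K27ac. With 10 boxes, Kazn was the only array among them, and Gse1 and Wdr18 lay within 165 bp and 90 bp of H3K27ac. The sites nearest to Zfp661 and Trak1 overlapped an H3K27ac peak of vehicle cells.

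SMAD4 of vehicle cells was seen at few of the sites. A vehicle SMAD4 peak overlapped 34 of 384 sites (8.85%, 95% Wilson interval 6.41% to 12.1%), beside 46.3% of all autosomal SMAD4 peaks and 47.5% of those inside H3K27ac. The odds ratio was 0.107 (95% interval 0.0752 to 0.153), and the two-sided Fisher's exact test gave an adjusted p of 3.76e-59. Within deciles of signal it was 0.247 (95% interval 0.163 to 0.373). Of the 8315 autosomal vehicle SMAD4 peaks, 259 lay outside vehicle H3K27ac, which also limits this share. Among strong peaks the sites were less apart from the rest. In the strongest quintile, 8 of 11 sites (72.7%, 95% interval 43.4% to 90.3%) overlapped vehicle SMAD4, against 89.4% inside H3K27ac, and in the weakest quintile 5 of 251 (1.99%) did, against 14.8%.

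**Figure D4:**
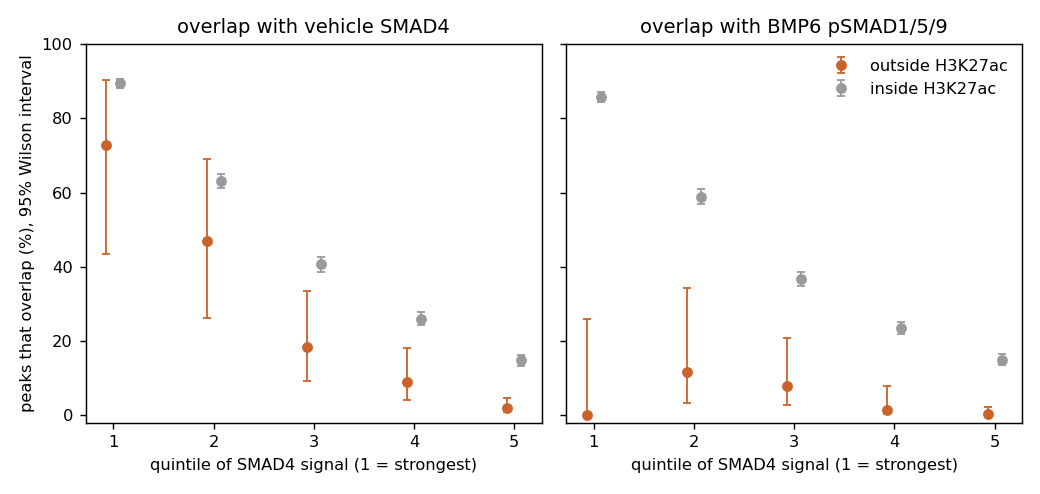
Share of BMP6 SMAD4 peaks that overlap a vehicle SMAD4 peak (left) or a BMP6 pSMAD1/5/9 peak (right), in %, by quintile of SMAD4 signal from 1 (strongest) to 5, for the 384 sites outside H3K27ac (orange) and the 11999 peaks inside it (grey), with 95% Wilson intervals. On the left the intervals meet in the first 2 quintiles, and on the right the orange points lie at 11.8% or lower in every quintile.

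Several of the strongest sites had a strong partner in vehicle cells. Ranks are given instead of signals, since each list was scored separately. The site near BB014433 was at 12.2% of the BMP6 list and at 3.24% of the vehicle list, and those near Gm26897, Magi3 and Foxo6 were at 9.09%, 9.62% and 10.6% of the vehicle list. The site upstream of Bmp6 was lower there, at 38.3% against 13.7%, as was that of Tmem200c, at 81.9% against 17.6%. The array beside Insig1, at 8.83% of the BMP6 list, was the strongest site without a vehicle peak of SMAD4 or H3K27ac, followed by those nearest to Myrfl, Tpsab1, Dlc1, Cryba4, Fras1, Ntsr1, Tubb6, Kazn and Gse1. A peak that is missing from a list did not pass the authors' threshold in both replicates, and binding was not compared by reads. Arrays overlapped vehicle SMAD4 at 10 of 43 sites and the other sites at 24 of 341. Inside H3K27ac, 46 of 75 arrays (61.3%) overlapped vehicle SMAD4 and 9 of 75 overlapped BMP6 pSMAD1/5/9, beside 47.5% and 44.9% of the peaks there without an array. Arrays ranked higher in both sets, with medians of 50.7% against 88.9% at the sites and 16.2% against 49.1% inside H3K27ac. In the strongest quintile inside H3K27ac, 89.4% of peaks overlapped vehicle SMAD4. These shares were not compared at equal strength.

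H3K27ac of vehicle cells was also mostly missing. It overlapped 29 of 384 sites (7.55%), beside 95.2% of all autosomal SMAD4 peaks and 98.0% of those inside BMP6 H3K27ac, with an odds ratio of 0.00166 (95% interval 0.00111 to 0.00248). When 50% of both peaks had to overlap, a setting that also depends on peak widths, the odds ratio was 0.584 and the difference no longer passed (Fisher's exact test, adjusted p = 0.0775). With the SMAD4 summit inside the vehicle peak, the odds ratio was 0.00170. The sites had been chosen for lacking this mark after BMP6, so its rarity in vehicle cells was largely set by that choice. The vehicle peaks at these 29 sites were weak, with a median rank of 86.0% in the vehicle list, and one of them, nearest to Ifitm10, stood at 8.07%. Taking the 4 partner lists, 322 sites (83.9%) overlapped none of them, 28 only vehicle SMAD4, 23 only vehicle H3K27ac and 4 only BMP6 pSMAD1/5/9.

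Distances to active chromatin varied widely among the sites. The BMP6 H3K27ac list held 72465 autosomal peaks, and the distances of random positions were not computed, so the values below are a description. The nearest BMP6 H3K27ac peak was 10978 bp away at the median, within 1 kb at 27 sites, within 10 kb at 177 (46.1%) and beyond 100 kb at 28. H3K27ac lay within 2 kb on both sides of 12 sites. The site closest to the threshold, an array of 33 boxes 3.24 kb upstream of Ptpn14, was 74 bp from an H3K27ac peak (2427 and 1531). Just on the other side of the threshold, the peak nearest to D430041D05Rik shared 40 bp with H3K27ac (2378 and 1398) and that nearest to Gadd45a shared 60 bp (2135 and 1573). The site farthest from H3K27ac lay nearest to Esp24.

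Most sites were intergenic. Between genes lay 229 of 384 (59.6%, 95% Wilson interval 54.7% to 64.4%), against 32.1% of the peaks inside H3K27ac (odds ratio 3.12, 95% interval 2.54 to 3.84, Fisher's exact test adjusted over 4 classes, p = 4.87e-27). Within 2 kb of a TSS lay 28 sites (7.29%) against 32.3% (odds ratio 0.165, 95% interval 0.112 to 0.243, exact test, adjusted p = 1.01e-30). H3K27ac is a mark of active promoters, and the sites were chosen for lacking it. The tests therefore cannot separate the TSS and intergenic shares from that choice. Introns held 116 sites (30.2% against 30.6%, odds ratio 0.981, 95% interval 0.786 to 1.22, exact test, adjusted p = 0.910). Exons held 11 (2.86% against 4.99%, odds ratio 0.561, 95% interval 0.306 to 1.03, exact test, adjusted p = 0.0739). The exon difference passed when sites in a vehicle H3K27ac peak were left out as members (odds ratio 0.495, exact test, adjusted p = 0.0447) and when H3K27ac peaks needed an IDR of at most 0.01 (odds ratio 0.508, exact test, adjusted p = 0.0191). When lncRNA genes were added to the annotation, the odds ratio of introns was 1.39 (adjusted p = 0.00231, exact test). The median distance to the nearest TSS was 36.8 kb against 13.7 kb. Every autosome had sites, from 8 on chromosome 19 to 33 on chromosome 4. As a share of the SMAD4 peaks of a chromosome they ranged from 1.42% on chromosome 7 to 6.36% on chromosome 16. Only 5 pairs of neighbours lay under 10 kb apart.

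Among the motifs, the SMAD palindrome GTCTAGAC was more frequent at the sites and most others were less frequent. All were searched on both strands of 200 bp at the summit, and p-values of Fisher's exact test were adjusted over 9 motifs. The palindrome, which also counts as a pair of SMAD boxes, was at 13 sites (3.39% against 1.24%, odds ratio 2.79, 95% interval 1.57 to 4.96, exact test, adjusted p = 0.00360). Only 3 of these 13 were arrays, and within deciles of signal the odds ratio was 6.09 (95% interval 3.29 to 11.3). The BMP-responsive words GGCGCC and GGAGCC were at 13.0% of the sites against 29.3% (odds ratio 0.361, 95% interval 0.268 to 0.487, exact test, adjusted p = 1.06e-12). The windows of the sites also had a lower GC content, with a median of 50.5% against 55.5%, and within deciles of GC content the odds ratio of these words was 0.621.

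The AP-1 word TGACTCA was at 7.81% against 15.6% (adjusted p = 4.54e-05, exact test), and the E-box CAGCTG, which myogenic factors bind, at 20.8% against 29.8% (adjusted p = 0.000320, exact test). The TEAD word ACATTCC was at 2.34% against 5.36% (adjusted p = 0.0128, exact test). The ETS word CCGGAAGT was at 0 sites against 1.38% (adjusted p = 0.0161, exact test), and a CTCF core of 4 words at 1 site against 1.58% (adjusted p = 0.0421, exact test). The 95% interval of the CTCF odds ratio already included 1 over all peaks (0.162, 0.0227 to 1.16). Within deciles of signal the odds ratio was 0.145 (95% interval 0.0193 to 1.08). The call was not kept there because strata were judged by the interval and not by the exact test. Without peaks at a TSS, the calls of ETS (odds ratio 0 as before, adjusted p = 0.814, exact test) and CTCF (odds ratio 0.413 in place of 0.162, adjusted p = 0.823, exact test) were lost, and in windows of 400 bp that of TEAD (odds ratio 0.720, adjusted p = 0.153, exact test). Among the 48 sites with an IDR of at most 0.01, AP-1 (odds ratio 0.468, against 0.458 over all sites, adjusted p = 0.380, exact test) and the E-box (odds ratio 0.387, against 0.620, adjusted p = 0.0517, exact test) did not pass either. The RUNX word TGTGGT (25.3% against 21.5%, adjusted p = 0.0999, exact test) and the MEF2 word CTAAAAATA (2 sites, adjusted p = 0.710, exact test) did not pass the threshold. RUNX passed in windows of 100 bp (odds ratio 1.53, against 1.23 in 200 bp, adjusted p = 0.00555, exact test) and with H3K27ac peaks of an IDR of at most 0.01 (odds ratio 1.28, adjusted p = 0.0291, exact test), whereas without peaks at a TSS its odds ratio was 0.901. For all SMAD4 peaks on autosomes the shares were 1.31% for the palindrome, 28.8% for the BMP-responsive words, 15.4% for AP-1, 29.5% for the E-box, 5.27% for TEAD, 21.6% for RUNX, 1.54% for CTCF, 1.34% for ETS and 0.485% for MEF2.

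**Figure D5:**
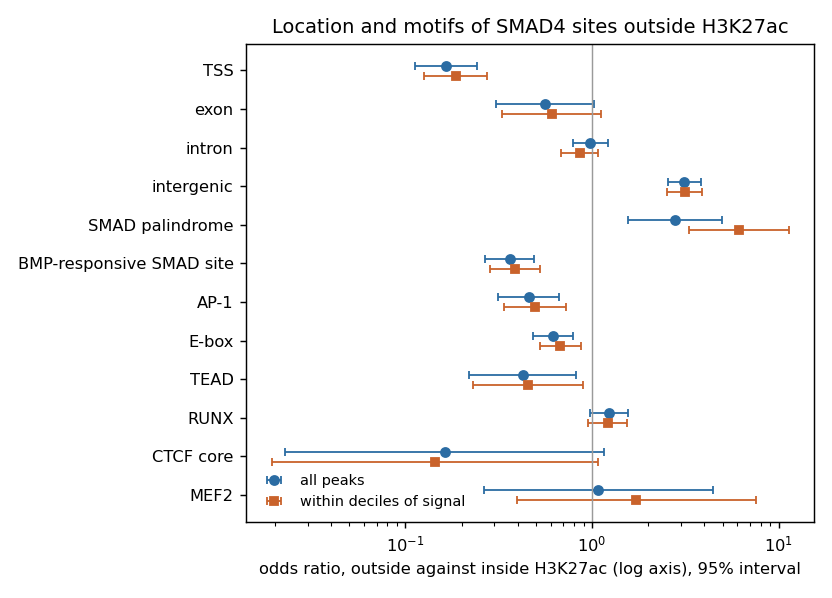
Odds ratios (log axis, bars are 95% intervals) of location classes and motifs for the 384 sites outside H3K27ac against the 11999 peaks inside it, over all peaks (blue) and within deciles of SMAD4 signal (orange, Mantel-Haenszel). Intergenic position and the SMAD palindrome lie to the right of 1, TSS, BMP-responsive words, AP-1, E-box and TEAD to the left, and ETS, with 0 sites, is not drawn.

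Most genes near a site had other SMAD4 peaks too. Within 20 kb of the body of 344 of 20621 autosomal protein-coding genes (1.67%) a site was found, and 209 of these genes had a SMAD4 peak inside H3K27ac in the same range as well, while 135 had none. For 141 sites no protein-coding gene lay within 20 kb. Of 78 genes of the BMP and TGF-β pathway, 9 (11.5%) had a site, and 50 (64.1%) had a peak inside H3K27ac, against 39.4% of all genes. These counts are a description and were not tested.

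The BMP and TGF-β genes fall into ligands, receptors, effectors, antagonists and targets. Among ligands, Bmp6 had the array upstream, Bmp8a a site 742 bp downstream of its TSS (5746 and 5450, no box, with vehicle SMAD4), and Gdf6 a weak exonic site (2171 and 1380). The receptor gene Bmpr1b had an exonic site (2796 and 2774, 7 boxes) that overlapped both a SMAD4 and an H3K27ac peak of vehicle cells. The effector gene Smad3 had a weak intronic site 41.9 kb from its TSS (2422 and 1725) besides the stronger one far upstream. The inhibitor genes Smad7 and Fst, which encodes an activin-binding antagonist, had weak sites 7.47 kb and 1.29 kb upstream (2941 and 1557, 2084 and 1494). Smad7 also had 8 SMAD4 peaks inside H3K27ac within the same range.

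Of the targets, Id4, a helix-loop-helix inhibitor of DNA binding, had an array of 21 boxes 14.7 kb downstream of its TSS (7848 and 3917) and no SMAD4 peak inside H3K27ac. Zeb1, a repressor of epithelial genes, had an array of 12 boxes beyond its body (2832 and 1405). The Notch list had a site at 1 of 49 genes (2.04%, beside 1.67% of all genes), which was Hes1, the Notch effector. This site lay 5.78 kb upstream (3250 and 2553, 2 boxes) and overlapped neither vehicle SMAD4 nor pSMAD1/5/9. Hes1 had 3 SMAD4 peaks inside H3K27ac in addition. Farther upstream, 35.8 kb and 87.6 kb from the TSS, Hes1 was also the nearest gene to 2 other sites (4279 and 1595, 4219 and 1861). The myogenic list had 1 of 42 genes (2.38%, beside the same 1.67%), which was Eya2, a transcriptional coactivator. Eya2 had 2 intronic sites (4309 and 3288, 2192 and 1409), of which the weaker overlapped vehicle H3K27ac. Among AP-1 genes, 1 of 15 (6.67%) had a site, Maff, 1.295 kb upstream (2710 and 1886).

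The remaining gene groups are read beside the 1.67% of all genes. Ion channel and neurotransmitter receptor genes had a site at 8 of 202 genes (3.96%), among them Kcnma1 and Cacna1c. Cadherins and protocadherins had one at 2 of 99 (2.02%), and developmental factors of the homeobox, Pax, Sox, Fox, Gata and T-box families at 2 of 212 (0.943%). Zfp genes had a site at 2 of 413 (0.484%), sarcomere genes at 1 of 59 (1.69%), which was Myom2, and olfactory and vomeronasal receptor genes at 0 of 1537.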

How the data were processed

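CUT&Tag peaks of mouse MuSCs were analysed from 6 consensus lists made from 12 of the 14 libraries. The authors brought reads to equal depth within an antibody, used Bowtie2 2.5.4 for alignment to GRCm39, kept properly paired reads of high mapping quality outside blacklisted regions with SAMtools 1.21 and bedtools 2.31.1, called peaks per replicate with JAMM, and combined both replicates with IDR at a threshold of 0.05, ranked by signal. For H3K27ac they used all peaks of JAMM, for the SMADs its filtered peaks. The deposited signal is a score with no fixed range, and the authors' IDR is given as −log10 of the value. The lists give no read counts, which leaves the depth of single peaks unknown, and precision is limited by having 2 replicates. Libraries were grouped by antibody and treatment as labelled, and no per-sample column was left out.

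The sites, gene lists and tests were chosen with earlier results of these data known. An overlap of 1 bp sufficed for peaks to count as shared. A peak was at a TSS within 2 kb, then, if not, exonic, intronic or intergenic in this order, after the canonical transcripts of 21770 GENCODE protein-coding genes (release M39). Location, overlaps and motifs were compared between the sites and the other autosomal SMAD4 peaks with two-sided Fisher's exact tests (scipy 1.17.1), Benjamini-Hochberg adjustment within each family and a threshold of 0.05. Strata used the Mantel-Haenszel odds ratio of statsmodels 0.14.6. Sequences were read with pysam 0.24.0, tables were made in Python 3.11.15 with pandas 2.3.3 and numpy 2.4.6, and figures in matplotlib 3.10.9. The procedures were tested on simulated data. Named were the genes nearest to the 20 strongest sites, to all sites with BMP6 pSMAD1/5/9 and to the 10 strongest without vehicle SMAD4 or vehicle H3K27ac, the BMP, Notch and myogenic genes with a site within 20 kb, and the peaks nearest to the threshold. Esp24, Ifitm10, Maff, Myom2, Kcnma1 and Cacna1c were named after their values had been seen.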

Additional observations from a re-analysis of the deposited data

How the results depend on the processing

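Each comparison was recomputed under the alternatives for membership, overlap, location, motif window and strata. Strata of peak width and of GC content, the omission of arrays, and all settings for arrays were added once results were known, and the array comparison in vehicle cells had been seen with 8 boxes before 10 was set. No paired analysis was possible because each condition is 1 consensus list without replicate numbers, and for the same reason no replicate could be left out of a test. Over all alternatives that gave a value, the odds ratio stayed between 0.0160 and 0.0543 for BMP6 pSMAD1/5/9, 0.0754 and 0.327 for vehicle SMAD4, 0.0988 and 0.261 for the TSS and 2.91 and 4.62 for intergenic sites, and all of them passed their test or had an interval without 1. Every alternative still chose the sites by H3K27ac. The alternatives thus cannot separate these overlaps and locations from that choice. The palindrome ranged from 1.96 to 7.96 and the array comparison in vehicle SMAD4 peaks from 13.9 to 45.9. With an overlap of 50% of both peaks, which also depends on peak widths, the odds ratio of vehicle H3K27ac was 0.584 and no longer passed (Fisher's exact test, adjusted p = 0.0775). With the SMAD4 summit inside the vehicle H3K27ac peak it was 0.00170. With an IDR of at most 0.01 for SMAD4, 48 sites were left, 2 motifs passed in place of 7, the median rank among the peaks of that IDR alone was 76.6% and the array share was 45.8%. The median rank was 85.7% when H3K27ac peaks needed an IDR of 0.01 and 90.5% with X included and ranked among all chromosomes, and between 85.7% and 86.7% when ranked by a single replicate column. The array share was 8.14% with X included, 7.29% at 15 or more boxes and 6.25% at 20 or more.

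CTCF also did not pass in windows of 100 bp (odds ratio 0.394) and 400 bp (0.364), or with strict H3K27ac peaks (0.508), where TEAD had 0.588 and did not pass either. Directions turned for introns, RUNX and MEF2. Introns had odds ratios of 1.03 with the summit rule, 1.10 with strict H3K27ac peaks, 1.02 with all basic transcripts, 1.39 with lncRNA genes and 1.01 without arrays. RUNX had 0.901 without TSS peaks and 0.935 within deciles of GC content, but passed at 1.53 in 100 bp (adjusted p = 0.00555, exact test) and at 1.28 with strict H3K27ac peaks (adjusted p = 0.0291, exact test). MEF2 had 0 at an IDR of 0.01, 0.913 without TSS peaks, 0.976 in 100 bp and 0.764 within deciles of GC content. The causes were not tested. Mantel-Haenszel values could not be given where no site had the feature, as for vehicle pSMAD1/5/9 and ETS. The site list rests on 1 consensus per condition and on a threshold for both SMAD4 and H3K27ac.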
